A study of Mus musculus with 4 samples.

Results

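The 10 genes described here belong to the actin cortex and are given by role: the actin monomer binders Tmsb4x, Tmsb10 and Pfn1, the actins Actb and Actg1, the severing factor Cfl1, the myosin II chains Myh9 and Myl6, the myosin phosphatase subunit Ppp1r12a, and the membrane linker Msn. They were picked by symbol, 10 of the 55453 genes counted, with earlier results of the same counts known, so their values are a description and carry no test. Transcripts were counted per well, from mouse embryos that had received a morpholino, a synthetic antisense oligomer that keeps its target RNA from being translated or spliced. There were 4 groups: NKX1-2 morpholino at the blastocyst stage, control morpholino at the blastocyst stage, NKX1-2 morpholino at the morula stage and control morpholino at the morula stage. NKX1-2 is a homeobox transcription factor, and the labels give no strain, embryo age or number of embryos. Each stage had 2 plates of 96 wells, with 48 wells of each morpholino on every plate. The 368 wells in which 2000 genes or more were detected were used (16 were not), and their counts were added up for each morpholino on each plate, giving 8 sums with 1084312 to 2398605 counts each. The plate is the replicate (n = 2 per stage), since no label ties wells to embryos, and the spread between plates may be technical. Levels are TMM-normalised CPM (counts scaled to a common library size) and are set side by side only within a gene.

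In the cell cortex, actin monomers are held in reserve by beta-thymosins, delivered to growing filament ends by profilin and released from old filaments by cofilin. Non-muscle myosin II pulls on the filaments when its regulatory light chain is phosphorylated, and the myosin phosphatase reverses that phosphorylation. In the mouse embryo this cortex drives compaction of the morula, and outer cells build an apical actin domain before they become trophectoderm, the outer layer of the blastocyst.

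Several of these genes have processed copies elsewhere in the genome. Their coding sequences are shown because shared bases can limit which counts are assigned to which gene. Where the counted reads lie along the transcripts was not examined. Tmsb4x (ENSMUSG00000049775; chromosome X, 167207093 to 167209315, minus strand, GRCm38) and Tmsb10 (ENSMUSG00000079523; chromosome 6, 72957347 to 72958748, minus strand) code for beta-thymosins of the same length, with 95 of 135 coding bases identical (70.4%). Capitals mark the bases of Tmsb10 that differ from Tmsb4x. The coding exons lie within chrX:167207501-167208036 for Tmsb4x and chr6:72957618-72958012 for Tmsb10, and introns are left out.
Tmsb4x: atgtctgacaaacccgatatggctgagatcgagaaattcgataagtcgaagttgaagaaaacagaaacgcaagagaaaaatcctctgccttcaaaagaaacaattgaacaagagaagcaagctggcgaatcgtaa
Tmsb10: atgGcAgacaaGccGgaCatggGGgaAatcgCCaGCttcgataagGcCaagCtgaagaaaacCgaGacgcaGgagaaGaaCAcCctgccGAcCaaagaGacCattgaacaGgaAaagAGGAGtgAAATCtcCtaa

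None of the 1367 stretches of 31 bases in Tmsb4x transcripts occurred in another annotated gene. Of the stretches of Tmsb10, 32% did. The processed pseudogene Gm3788 (chr3:86672033-86672168, minus strand) carries the Tmsb10 coding sequence with all 135 bases identical and 1 base added. Gm9844 (chr7:24862278-24862412 in its coding part, plus strand), annotated as protein coding, differs from Tmsb10 at 2 of 135 bases. Capitals mark the added base and the differing bases relative to Tmsb10.
Gm3788: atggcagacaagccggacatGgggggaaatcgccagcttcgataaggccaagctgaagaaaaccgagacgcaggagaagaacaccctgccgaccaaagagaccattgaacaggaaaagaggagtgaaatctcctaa
Gm9844: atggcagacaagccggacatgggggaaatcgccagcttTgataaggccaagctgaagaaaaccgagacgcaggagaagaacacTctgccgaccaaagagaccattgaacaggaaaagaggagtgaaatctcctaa
These copies received few counts, 11 for Gm3788 and 23 for Gm9844 over all kept wells.

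Among the actins, Actg1 (ENSMUSG00000062825; chromosome 11, 120345690 to 120348542, minus strand) shared the most sequence, with 40.2% of its stretches found in another gene. Its coding sequence was 88.7% identical to that of Actb over 1128 bases, while the pseudogene Gm12715 differed from it at only 4 of 1128. The pseudogenes Gm8399 and Actg-ps1 were 99.3% and 97.5% identical to Actg1 over the aligned bases. The first coding bases of Actg1 (chr11:120348002-120348091, minus strand), of Actb (chr5:142905597-142905686, minus strand) and of the matching stretches of Gm12715 (chr4:103563402-103563491, plus strand), Gm8399 (chr13:81064684-81064773, plus strand) and Actg-ps1 (chr8:46228994-46229082, plus strand) follow, with capitals where a base differs from Actg1.
Actg1: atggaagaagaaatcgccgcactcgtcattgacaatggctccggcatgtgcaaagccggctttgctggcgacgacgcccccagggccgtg
Actb: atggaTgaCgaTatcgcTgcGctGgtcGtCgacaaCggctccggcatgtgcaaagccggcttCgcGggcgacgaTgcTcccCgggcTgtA
Gm12715: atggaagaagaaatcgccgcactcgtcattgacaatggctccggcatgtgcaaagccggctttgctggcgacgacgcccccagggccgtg
Gm8399: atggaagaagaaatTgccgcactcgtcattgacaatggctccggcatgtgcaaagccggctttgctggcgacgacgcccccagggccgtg
Actg-ps1: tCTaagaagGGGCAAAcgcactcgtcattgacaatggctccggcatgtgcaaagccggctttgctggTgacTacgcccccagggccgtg
Gm12715 is identical to Actg1 over this stretch and cannot be told from it there, whereas Actb differs at 16 bases. Over all kept wells, Gm12715 had 8 counts, Gm8399 had 8 and Actg-ps1 had 11.

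For the other genes, the share of stretches found elsewhere was 23.6% for Actb, 22.6% for Cfl1 and 11.4% for Myl6. It was at most 1.91% for Pfn1, Ppp1r12a, Myh9 and Msn. The Myl6 copies held more counts than those of the actins: the pseudogene Gm10080 had 507, Gm5915 had 115 and Gm5526 had 59. The pseudogene Gm6180 of Cfl1 had 7.

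The counting itself differed between the stages. Over all wells, Gapdh had 389 and 550 counts in the blastocyst plates, against 6 and 6 in the morula plates, and Gm42418, known to overlap a ribosomal RNA repeat, had 87970 and 102829 counts in the blastocyst plates, against 0 and 0 in the morula plates. A run of 344 neighbouring genes had 0 counts in both morula plates and was left out of all fits. Each plate held only 1 stage, so stage, plate and counting cannot be told apart for any gene, with or without copies. Both morpholinos share each plate, so the comparison of morpholinos is made within 1 way of counting.

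Tmsb4x, which codes for thymosin beta-4, the main monomer-sequestering peptide of many cells, was higher in the NKX1-2 sum of every plate. In the blastocyst plates it had 34 and 62 counts in NKX1-2 wells, against 3 and 3 counts in control wells. In the morula plates it had 16 and 31 counts in NKX1-2 wells, against 3 and 4 counts in control wells. The groups did not overlap at either stage, and the control counts were near the floor of 3 counts. With 2 sums per group, non-overlap is a weak description here and below, and it is not set beside its share among all genes.

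As levels, these were 26.3 and 41.0 CPM in NKX1-2 blastocyst sums, against 3.16 and 2.27 CPM in control blastocyst sums. The morula sums had 6.04 and 11.9 CPM with NKX1-2, against 1.25 and 1.80 CPM with control. The ratio of NKX1-2 to control was 13.2 in the blastocyst (95% exact interval 5.83 to 36.7, counting error only) and 5.97 in the morula (2.68 to 15.6). The fitted log2 fold change was 3.66 (SE 0.49) in the blastocyst and 2.49 (SE 0.52) in the morula.

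**Figure D1:**
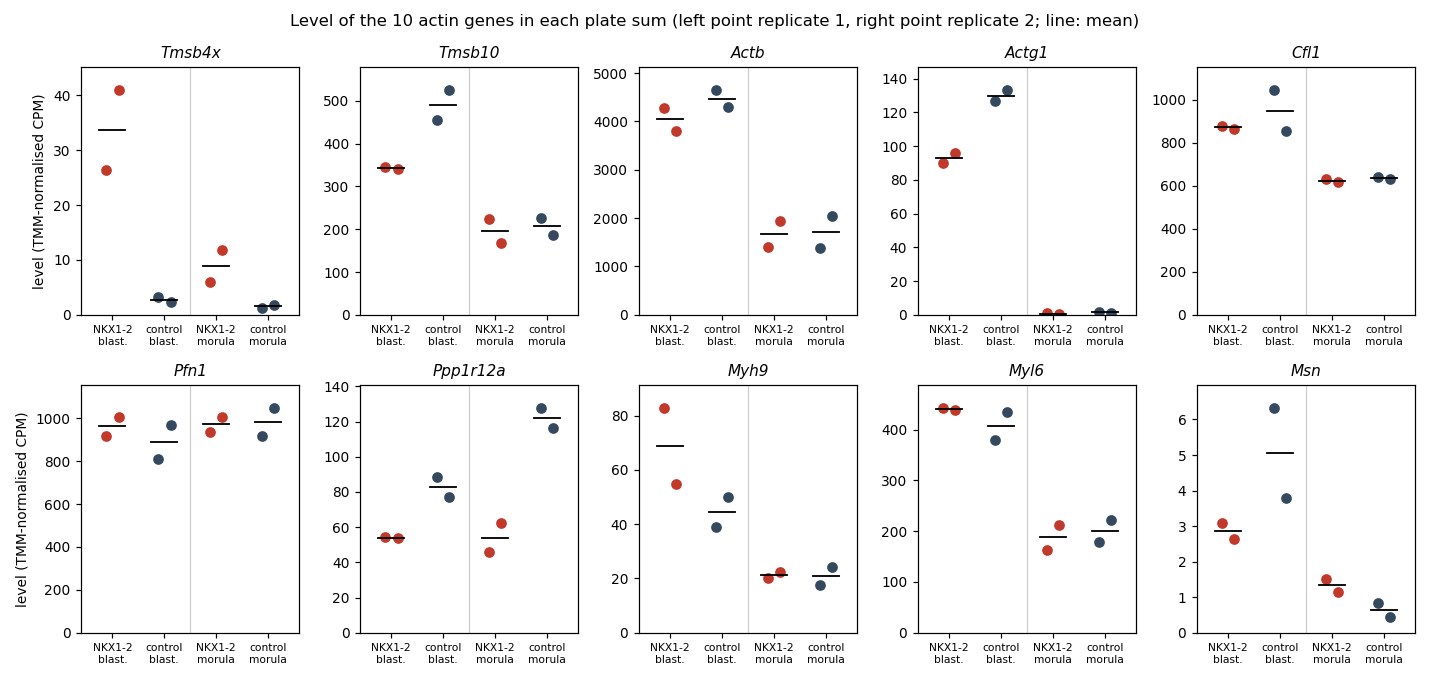
Level of each of the 10 genes in TMM-normalised CPM (y axis, starting at 0, own scale per gene) for NKX1-2 and control sums of blastocyst and morula plates (x axis); points are the 2 plates and the line is their mean. Tmsb4x is higher with NKX1-2 in each plate, Ppp1r12a is lower, and Actg1 is near 0 in the morula.

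More wells had Tmsb4x, and no single well carried the sum. Of the blastocyst wells, 17 of 47 and 22 of 44 NKX1-2 wells had a count, against 3 of 43 and 3 of 43 control wells. Of the morula wells, 13 of 48 and 12 of 47 NKX1-2 wells had a count, against 3 of 48 and 3 of 48 control wells. The highest well held 10 counts, and without the highest well of each sum the log2 fold change was 3.95 in the blastocyst and 2.91 in the morula.

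NKX1-2 wells were deeper than control wells, with medians of 30453 and 37602 counts per well against 22391 and 31360 in the blastocyst, and 47763 and 48648 against 44201 and 41251 in the morula. With every well thinned to 10000 counts, 17.0% and 23.3% of NKX1-2 blastocyst wells had Tmsb4x, against 4.76% and 4.65% of control blastocyst wells. In the morula these shares were 2.13% and 6.38% with NKX1-2, against 0% and 0% with control, where 1 to 3 counts in all remained. As a background, 12 genes of other tissues were found in a median of 0% to 1.14% of wells per group. Leaving out Pecam1, which inner cell mass cells also express, the highest of them was in 6.98% to 29.8% of wells. The Tmsb4x share of control wells, 6.25% to 6.98%, lay above the median of these genes and at or below the highest. The Tmsb4x shares of NKX1-2 wells were 36.2% and 50% in the blastocyst, against 29.8% and 27.3% for the highest of these genes, and 27.1% and 25.5% in the morula, against 10.4% and 23.4%. In NKX1-2 blastocyst wells the highest gene was Ckm, with 16 and 17 counts, against 3 and 13 in control blastocyst wells. This background thus also differed between the morpholinos.

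Tmsb4x lies on the X chromosome, and the groups differed in the sex-linked RNA of their wells. Xist, the RNA of the inactive X, was counted without a Y-linked RNA (Eif2s3y, Ddx3y or Kdm5d) in 55 NKX1-2 and 21 control blastocyst wells, while 6 NKX1-2 and 30 control blastocyst wells had only Y-linked RNA. In the morula the balance was the other way round, with 33 NKX1-2 and 52 control wells with only Xist, and 45 NKX1-2 and 25 control wells with only Y-linked RNA. Both kinds of RNA were counted in 29 NKX1-2 and 27 control blastocyst wells and in 13 NKX1-2 and 11 control morula wells, and neither in 1 NKX1-2 and 8 control blastocyst wells and in 4 NKX1-2 and 8 control morula wells, so the sex of these wells was not assigned. Over 364 X-linked genes the median log2 fold change was 0.18 in the blastocyst and -0.09 in the morula. In the blastocyst 10 of the 364 were called, all higher with NKX1-2, against 69 of 10408 genes of other chromosomes; in the morula 2 were called, 1 in each direction, against 57 of 10408. The part of well sex in the Tmsb4x difference was not tested beyond the values that follow.

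Within the classes with only Xist, with both or with only Y-linked RNA, the share of wells with Tmsb4x was higher with NKX1-2 in the blastocyst and in the morula. Wells with neither RNA were few, with a count in 1 of 1 NKX1-2 and 1 of 8 control blastocyst wells. In the morula these were 1 of 4 NKX1-2 and 2 of 8 control wells, 25% in both. Of wells with only Xist, 25 of 55 NKX1-2 and 3 of 21 control blastocyst wells had a count, and 7 of 33 NKX1-2 and 3 of 52 control morula wells. Of wells with only Y-linked RNA, 2 of 6 NKX1-2 and 0 of 30 control blastocyst wells had a count, and 12 of 45 NKX1-2 and 0 of 25 control morula wells. A count of 0 allows a share of up to 10% of 30 wells and up to 12% of 25 wells by the floor of 3 counts, and the exact 95% intervals end at 11.6% and 13.7%. In wells with only Xist, the log2 fold change was 2.73 in the blastocyst and 1.52 in the morula.

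**Figure D2:**
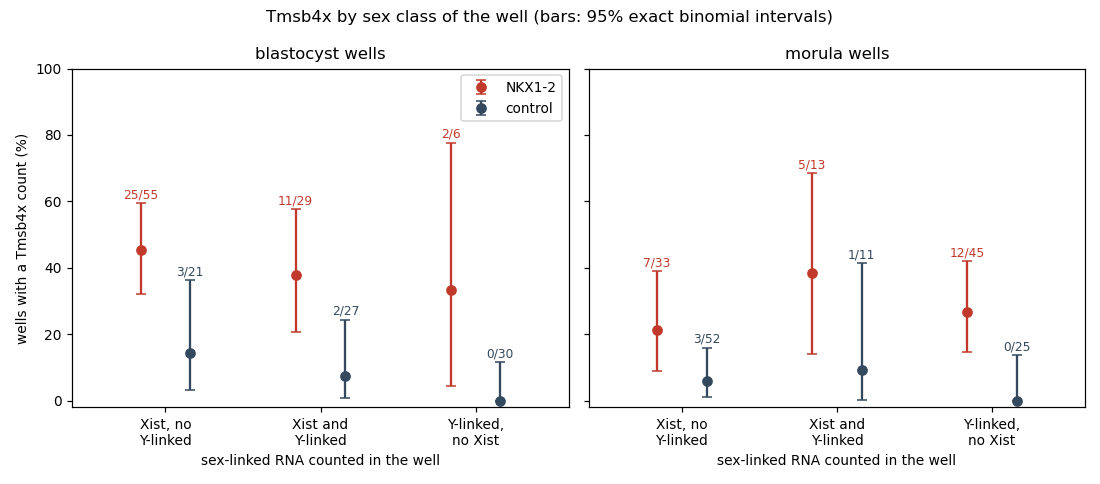
Percent of wells with at least 1 Tmsb4x count (y axis) in wells with only Xist, with both, or with only Y-linked RNA (x axis), for NKX1-2 (red) and control (dark) wells; bars are 95% exact binomial intervals and labels give wells with a count over all wells. The NKX1-2 point lies above the control point in each of the 6 pairs, with 25/55 against 3/21 in blastocyst wells with only Xist.

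Tmsb10, the related beta-thymosin, went the other way in the blastocyst. It had 344.7 and 340.0 CPM in NKX1-2 blastocyst sums, against 454.5 and 525.6 CPM in control blastocyst sums, and the groups did not overlap. The morula sums had 224.0 and 167.1 CPM with NKX1-2 and 226.5 and 186.4 CPM with control, and these overlapped. The log2 fold change was -0.52 (SE 0.13) in the blastocyst and -0.08 (SE 0.13) in the morula. In blastocyst wells with only Xist it was -0.21. Tmsb10 was found in 43 of 43 control wells on each blastocyst plate and in 46 of 47 and 43 of 44 NKX1-2 wells.

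Pfn1 (ENSMUSG00000018293; chromosome 11, 70651850 to 70654644, minus strand) codes for profilin 1, which loads monomers onto growing ends. Its level was 918.7 and 1008.7 CPM in NKX1-2 blastocyst sums and 813.0 and 970.2 CPM in control blastocyst sums, and 937.8 and 1007.7 CPM in NKX1-2 morula sums and 919.2 and 1049.5 CPM in control morula sums. The groups overlapped at both stages. The fold change was 0.12 (SE 0.10) on the log2 scale in the blastocyst and -0.01 (SE 0.10) in the morula. Every kept well had a Pfn1 count.

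Both actins had lower levels in the NKX1-2 sums than in the control sums of the blastocyst. Actb (ENSMUSG00000029580; chromosome 5, 142903115 to 142906754, minus strand), cytoplasmic beta-actin, had 4282.2 and 3804.6 CPM in NKX1-2 blastocyst sums, against 4652.4 and 4297.4 CPM in control blastocyst sums. In the morula it had 1404.3 and 1933.1 CPM with NKX1-2, against 1379.3 and 2050.8 CPM with control. On each blastocyst plate the NKX1-2 sum was the lower of the pair, with log2 differences of -0.12 and -0.18, and the blastocyst groups did not overlap, while the morula groups did. The fit gave -0.15 (SE 0.08) in the blastocyst and -0.03 (SE 0.08) in the morula.

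Actg1, cytoplasmic gamma-actin, had 116 and 145 counts in NKX1-2 blastocyst sums and 120 and 176 counts in control blastocyst sums. As levels these were 89.9 and 95.9 CPM with NKX1-2, against 126.5 and 133.3 CPM with control. In the morula it had 3 and 1 counts with NKX1-2 and 4 and 3 counts with control, too few to compare. The blastocyst groups did not overlap, with a log2 fold change of -0.48 (SE 0.18) and a count ratio of 0.725 (95% exact interval 0.612 to 0.859).

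Cfl1 (ENSMUSG00000056201; chromosome 19, 5490455 to 5495201, plus strand), cofilin 1, which severs filaments, had 880.0 and 865.2 CPM in NKX1-2 blastocyst sums and 1046.0 and 852.8 CPM in control blastocyst sums. In the morula it had 632.6 and 615.8 CPM with NKX1-2 and 640.3 and 633.0 CPM with control. Its blastocyst groups overlapped and its morula groups did not, although the nearest morula sums were 632.6 and 633.0 CPM. Its log2 fold change was -0.11 (SE 0.11) in the blastocyst and -0.03 (SE 0.11) in the morula.

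Ppp1r12a (ENSMUSG00000019907; chromosome 10, 108162193 to 108284475, plus strand) codes for MYPT1, the subunit that targets the phosphatase to myosin, and was lower with NKX1-2 on every plate. It had 54.2 and 53.6 CPM in NKX1-2 blastocyst sums, against 88.6 and 77.3 CPM in control blastocyst sums. The morula sums had 45.7 and 62.5 CPM with NKX1-2, against 127.8 and 116.6 CPM with control. The groups did not overlap at either stage, and the control morula level was the highest of the 4 groups. The log2 fold change was -0.61 (SE 0.21) in the blastocyst and -1.18 (SE 0.18) in the morula.

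Fewer NKX1-2 wells held a Ppp1r12a count: 32 of 47 and 35 of 44 NKX1-2 blastocyst wells, against 34 of 43 and 40 of 43 control blastocyst wells, and 40 of 48 and 39 of 47 NKX1-2 morula wells, against 47 of 48 and 47 of 48 control morula wells. At 10000 counts per well the shares were 36.2% and 27.9% with NKX1-2 against 57.1% and 60.5% with control in the blastocyst. They were 36.2% and 51.1% with NKX1-2 against 68.8% and 72.9% with control in the morula. The gene shares no stretch with another gene. Its level was also lower with NKX1-2 among wells with only Xist, at 50.9 against 88.8 CPM in the blastocyst and 77.2 against 134 CPM in the morula, without TMM scaling. Among wells with only Y-linked RNA it was 49.2 against 65.8 CPM in the blastocyst, from 10 counts in 6 NKX1-2 wells, and 42.9 against 130 CPM in the morula.

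Myh9 (ENSMUSG00000022443; chromosome 15, 77760587 to 77842175, minus strand), the heavy chain of non-muscle myosin IIA, had 82.9 and 54.9 CPM in NKX1-2 blastocyst sums, against 39.0 and 49.99 CPM in control blastocyst sums. The morula sums had 20.02 and 22.2 CPM with NKX1-2 and 17.5 and 24.3 CPM with control. The groups did not overlap in the blastocyst and overlapped in the morula. The blastocyst difference lay in 1 plate: the log2 difference was 1.07 on plate 1 and 0.13 on plate 2. The fit gave 0.58 (SE 0.25) in the blastocyst and 0.03 (SE 0.27) in the morula, and in the blastocyst 0.14 without plate 1 and 1.09 without plate 2.

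Myl6 (ENSMUSG00000090841; chromosome 10, 128490860 to 128494145, minus strand), the essential light chain, had 443.1 and 437.9 CPM in NKX1-2 blastocyst sums and 379.6 and 435.5 CPM in control blastocyst sums. The morula sums had 163.2 and 213.0 CPM with NKX1-2 and 178.6 and 222.4 CPM with control. Its log2 fold change was 0.11 (SE 0.13) in the blastocyst and -0.09 (SE 0.13) in the morula. The morula groups overlapped, and the blastocyst groups did not, although plate 2 had a log2 difference of only 0.0078, against 0.22 on plate 1.

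Msn codes for moesin, which ties filaments to the membrane, and like Tmsb4x lies on the X chromosome (ENSMUSG00000031207; 96096042 to 96168552, plus strand). It had 4 and 4 counts in NKX1-2 blastocyst sums, against 6 and 5 in control blastocyst sums, and 4 and 3 counts in NKX1-2 morula sums, against 2 and 1 in control morula sums. The ratio of NKX1-2 to control was 0.598 (95% exact interval 0.209 to 1.63) in the blastocyst and 2.07 (0.473 to 12.4) in the morula. Both intervals hold 1, so a difference was not detectable at this depth, and the gene was too low to enter the fits.

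**Figure D3:**
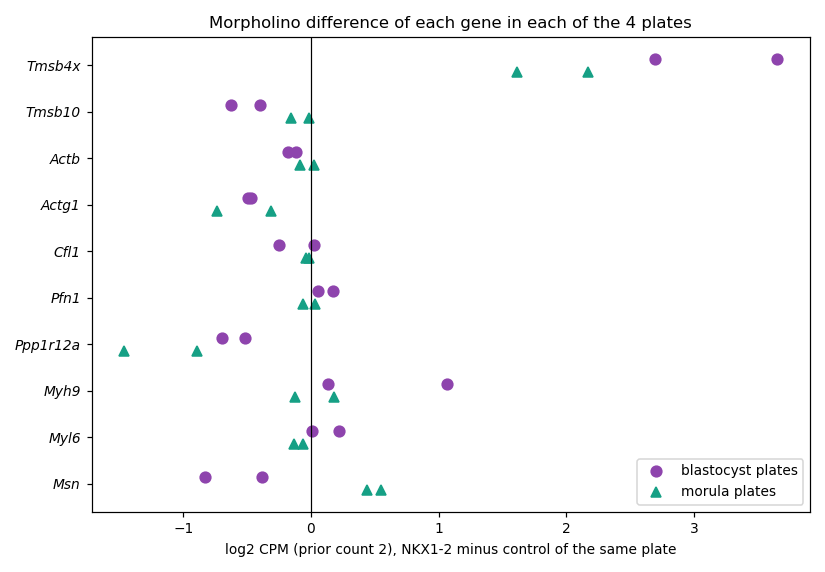
Log2 CPM (prior count 2) of the NKX1-2 sum minus that of the control sum of the same plate (x axis) for each gene (y axis), with 1 point per blastocyst plate (circles) and per morula plate (triangles). All 4 Tmsb4x points lie between 1.62 and 3.65, all 4 Ppp1r12a points lie between -1.46 and -0.52, and most other points lie near 0; the prior count shrinks differences of genes with few counts.

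In counts of calls (edgeR quasi-likelihood test, Benjamini-Hochberg adjusted p under 0.05 over all genes), 9 of the 10 genes were tested, and Msn was not. In the blastocyst 1 was called, Tmsb4x, higher with NKX1-2, where 0.727% of all 10873 genes tested were called and 0.386% were called higher. In the morula 2 were called, Tmsb4x higher and Ppp1r12a lower, against 0.552% of all genes, 0.276% higher and 0.276% lower. For the difference of the morpholino effect between the stages 0 were called, against 0.0184% of all genes, 0.00920% in each direction; at an unadjusted p under 0.05 it was 1 of 9, where 699 of all 10873 genes were under it. In the blastocyst 5 of 9 were under an unadjusted p of 0.05, where 1491 of all genes were, and in the morula 2 of 9, where 1159 of all genes were. The genes were chosen with these contrasts known, so nothing is read from the counts. DESeq2 called none of them and gave Tmsb4x no adjusted p. The Tmsb4x call in the morula was lost without either morula plate, with limma voom and without the plate block, and both morula calls were lost without morula plate 1. Without blastocyst plate 1 Tmsb10 was also called in the blastocyst, and without blastocyst plate 2 Myh9 was. In wells with only Xist, none of the 10 genes was called at either stage.

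The other genes of the actin system were 170 in 12 lists by role. In the blastocyst 1 of 118 tested was called, where 79 of all 10873 genes were, and in the morula 0 of 118, where 60 of all genes were. At an unadjusted p under 0.05 there were 17 of 118 in the blastocyst, beside 1491 of all genes, and 12 of 118 in the morula, beside 1159 of all genes. For the difference between stages 0 of 118 were called, with 10 at an unadjusted p under 0.05, beside 2 and 699 of all genes. These shares lie near those of all genes, and nothing particular to the actin genes is read from them. DESeq2 called 1, 0 and 0. The median log2 fold change of the lists was -0.047 in the blastocyst, beside -0.0026 for all genes, and 0.0077 in the morula, beside -0.0044.

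Tagln2, transgelin 2, an actin-binding protein of the calponin family, was the gene called. It fell with NKX1-2 in the blastocyst, with 178.9 and 158.1 CPM in NKX1-2 sums, against 304.7 and 334.8 CPM in control sums. The log2 fold change was -0.93 (SE 0.15, edgeR adjusted p = 0.0077). In the morula it had 176.4 and 136.0 CPM with NKX1-2 and 195.3 and 179.6 CPM with control, which was not called. In blastocyst wells with only Xist its log2 fold change was -0.64 and the call was lost (adjusted p = 0.784, over alternatives 5.06e-09 to 0.784).

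The counts of other actin genes called changed with the plates in the fit, as did those of all genes. With either blastocyst plate left out, 7 were called in the morula, where 833 and 838 of all genes were called. In the blastocyst, 4 were called without blastocyst plate 1 and 9 without blastocyst plate 2, with 565 and 635 of all genes. For the difference between stages these counts were 4 and 2, with 252 and 246 of all genes. The fit of the 4 blastocyst sums alone called 3 of 105, with 123 of all 8258 genes, and that of the 4 morula sums alone called 6 of 106, with 834 of all 10383.

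Between the stages, most of the 10 genes stood higher in the blastocyst. This and the other stage differences below cannot be told apart from the difference in plates and counting described above. In control wells the sums had 4652.4 and 4297.4 CPM of Actb in the blastocyst, against 1379.3 and 2050.8 CPM in the morula, a log2 fold change of 1.39 (SE 0.15). Myl6 had a fold change of 1.03 (SE 0.18), Myh9 of 1.11 (SE 0.31), Tmsb10 of 1.26 (SE 0.18) and Cfl1 of 0.58 (SE 0.15) on the log2 scale. Pfn1 was at -0.13 (SE 0.15), and Ppp1r12a was at -0.56 (SE 0.22).

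In NKX1-2 wells the same log2 fold changes of blastocyst over morula were 1.27 (SE 0.13) for Actb, 1.23 (SE 0.15) for Myl6, 1.69 (SE 0.26) for Myh9, 0.80 (SE 0.16) for Tmsb10 and 0.48 (SE 0.12) for Cfl1. Pfn1 was at -0.02 (SE 0.12) and Ppp1r12a at -0.01 (SE 0.23), a value whose sign turned with the normalisation. Tmsb4x, with 96 counts in the blastocyst and 47 in the morula, was at 1.91 (SE 0.37). As a plain count ratio, without TMM scaling or log, this was 3.2 (95% exact interval 2.24 to 4.64). In control wells it had 6 counts in the blastocyst and 7 in the morula, a count ratio of 1.45 (95% exact interval 0.403 to 5.04).

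Actg1 differed most between the stages among the 10 genes. Its ratio of blastocyst to morula was 102 in NKX1-2 wells (261 against 4 counts, 95% exact interval 39.5 to 378) and 71.6 in control wells (296 against 7 counts, 34.3 to 180). It was found in 40 of 47 and 41 of 44 NKX1-2 blastocyst wells, against 3 of 48 and 1 of 47 NKX1-2 morula wells. Adding the rows of its 3 pseudogenes lowered the log2 fold change to 6.33 in NKX1-2 wells and 5.92 in control wells, against 6.82 and 6.37 for its own row. The share of its sequence found in other genes is given above. Of all genes sharing 25% to 50% of their stretches, 9.92% were higher by 4-fold in control blastocyst wells and 11.6% lower by 4-fold. Of genes sharing under 1%, these were 3.85% and 5.39%. The part of shared sequence in the Actg1 value was not tested.

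**Figure D4:**
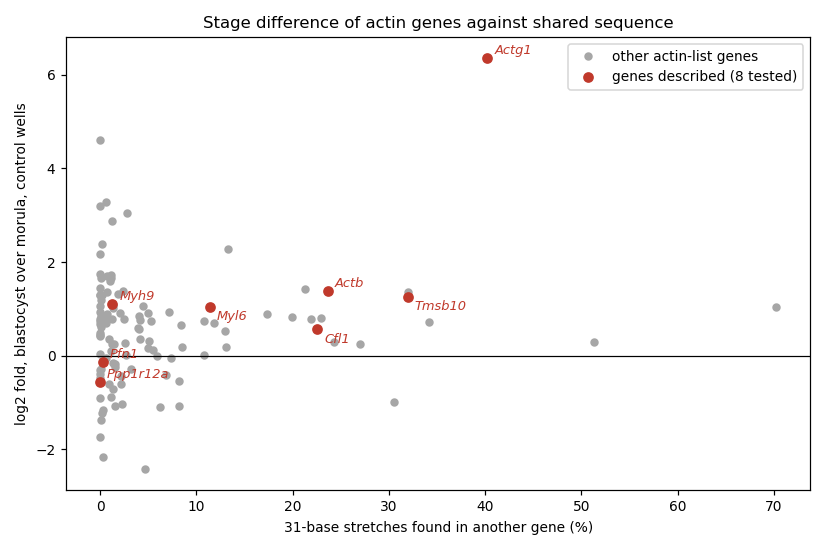
Log2 fold change of blastocyst over morula in control wells (y axis) against the percent of a gene's 31-base stretches that occur in another gene (x axis), for 8 of the genes described (red, named) and other genes of the actin lists (grey). Actg1 lies apart at 6.37 and 40.2%, while Tmsb10 (32%) and Actb (23.6%) lie at 1.26 and 1.39.

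By the same call rule, 7 of 9 tested genes were called in NKX1-2 wells, all higher in the blastocyst, where 45.9% of all 10221 genes were called. In control wells 7 of 8 were called, 6 higher and 1 lower, where 41.7% of all 9577 genes were called. Nothing is read from these counts. Ppp1r12a lost its call in control wells under DESeq2, in wells with only Xist and without morula plate 1, morula plate 2 or blastocyst plate 2. Myh9 lost it in wells with only Xist and without morula plate 1 or blastocyst plate 2. In NKX1-2 wells Tmsb10 lost its call without blastocyst plate 1 and Tmsb4x without blastocyst plate 2.

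Among the other actin genes, 62 of 111 tested were called between the stages in NKX1-2 wells, 46 higher and 16 lower in the blastocyst, with a median log2 fold change of 0.34 beside -0.02 for all genes. In control wells 61 of 107 were called, 49 higher and 12 lower, with a median of 0.62 beside -0.01. Of all genes, 21.9% were called higher and 24.0% lower in NKX1-2 wells, and 20.1% higher and 21.6% lower in control wells. Of the called genes, 51 in NKX1-2 wells and 49 in control wells share at most 10% of their stretches with another gene. Without blastocyst plate 1, 33 were called in NKX1-2 wells, where the calls over all genes were 2266, against 4690 with all plates. In control wells 37 were called without morula plate 2, 39 with DESeq2 and 24 among wells with only Xist, where the calls over all genes were 2596, 2513 and 1602, against 3993.

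The myosin II lists held 3 tested heavy and light chains beside Myh9 and Myl6, and all 3 rose in the blastocyst in both kinds of wells. Myh10, the heavy chain of non-muscle myosin IIB, had 101.5 and 90.6 CPM in NKX1-2 blastocyst sums, against 22.7 and 26.4 CPM in NKX1-2 morula sums, a log2 fold change of 1.96 (SE 0.23, edgeR adjusted p = 1.7e-06). Myl12b, a regulatory light chain, had 113.9 and 162.8 CPM in control blastocyst sums, against 48.3 and 55.4 CPM in control morula sums (log2 fold change 1.43, SE 0.23, edgeR adjusted p = 3.6e-05). Dapk3, a kinase that phosphorylates the regulatory light chain, fell, with log2 fold changes of -2.29 (SE 0.29) in NKX1-2 wells and -2.42 (SE 0.34) in control wells.

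All 5 tested genes of the formin and Spire list, nucleators of straight filaments, rose in the blastocyst in both kinds of wells. The formin Fmnl2 had 8.44 and 15.1 CPM in control blastocyst sums, against 0.416 and 0.450 CPM in control morula sums, which is at the level of 1 count. Its log2 fold change was 4.61 (SE 0.71, edgeR adjusted p = 1.8e-05). Of the capping and severing genes tested, 4 of 8 rose in NKX1-2 wells and 6 of 8 in control wells, and none fell. Capzb, the beta subunit of the capping protein, had 273.4 and 211.7 CPM in NKX1-2 blastocyst sums, against 89.1 and 72.0 CPM in NKX1-2 morula sums.

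The Arp2/3 complex, which nucleates branched filaments, did not move one way. In NKX1-2 wells 2 of its 9 tested subunits rose and 3 fell, and in control wells 3 rose and 3 fell. Arpc1b was among those that fell in NKX1-2 wells, with 138.7 and 105.8 CPM in blastocyst sums, against 277.2 and 317.3 CPM in morula sums; 30.5% of its stretches occur in another gene.

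Among the crosslinkers and filament-associated genes tested, 11 of 25 rose and 2 fell in NKX1-2 wells. The same numbers rose and fell in control wells. Marcks, a membrane-bound actin crosslinker, had 47.5 and 69.7 CPM in control blastocyst sums, against 7.08 and 4.95 CPM in control morula sums (log2 fold change 3.28, SE 0.36, edgeR adjusted p = 1.7e-07). Fscn1, fascin, a filament-bundling protein, had 18.6 and 25.8 CPM in NKX1-2 blastocyst sums, against 137.1 and 105.0 CPM in NKX1-2 morula sums (log2 fold change -2.44, SE 0.25, edgeR adjusted p = 3.3e-07). Cnn3, calponin 3, rose by 1.37 (SE 0.19) in control wells, and 32% of its stretches occur in another gene.

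Ezr, ezrin, the relative of moesin found at the apical surface of outer cells, had 42.2 and 74.2 CPM in control blastocyst sums, against 6.66 and 9.45 CPM in control morula sums. Its log2 fold change was 2.88 (SE 0.36, edgeR adjusted p = 1.1e-06). Iqgap1, a scaffold of Rac1 and Cdc42, had 78.2 and 60.9 CPM in NKX1-2 blastocyst sums, against 16.2 and 17.6 CPM in NKX1-2 morula sums. Racgap1, a cytokinesis regulator, fell by 1.25 (SE 0.16) on the log2 scale in NKX1-2 wells.

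The wells of a group also differed among themselves in Actb. At 10000 counts per well, Actb ranged over 8 to 91 and 6 to 79 counts in NKX1-2 blastocyst wells, with medians of 36 and 31, and over 6 to 90 and 10 to 86 in control blastocyst wells, with medians of 43 and 37. The means were 40.8 and 34.5 with NKX1-2, against 38.6 and 40.5 with control. On blastocyst plate 1 the mean and the median thus differed in direction. In the morula it ranged over 4 to 32 and 2 to 47 counts in NKX1-2 wells, with medians of 15 and 22, and over 5 to 39 and 5 to 48 in control wells, with medians of 16 and 23.5. The variance over the mean, which is 1 for counting error alone, was 5.03 to 11.8 in the blastocyst groups and 2.51 to 3.48 in the morula groups. This measure grows with the mean count where wells differ by a fixed share, and the mean was also higher in the blastocyst, so it is not compared between genes and its rise between stages has that limit.

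Across wells of equal depth, Actb went with the summed counts of 13 trophectoderm markers in the blastocyst, with Spearman's rho of 0.3 to 0.709 in the 4 groups (median 0.563). In the 4 morula groups rho was -0.053 to 0.383. Actb had the highest blastocyst median of the genes compared in this way. The others had 0.321 (Pfn1), 0.268 (Myh9), 0.241 (Myl6), 0.17 (Tmsb10) and 0.119 (Cfl1). These are descriptions over 42 to 48 wells a group, in which wells share a library and may share an embryo. The trophectoderm markers summed to 1104.6 and 1123.8 CPM in NKX1-2 blastocyst sums, 972.2 and 976.3 CPM in control blastocyst sums, 455.1 and 654.5 CPM in NKX1-2 morula sums and 491.3 and 442.1 CPM in control morula sums, all 13 with a count. Most of the morula sums was Hand1, at 281.8 to 492.8 CPM, against 38.0 to 99.1 CPM in the blastocyst sums. Krt18, Dab2, Lrp2 and Fabp3 were higher in the blastocyst. The list thus weighed different genes at each stage, which limits a comparison of its sums or rho values between stages. The 7 inner cell mass markers, all with a count, summed to 263.4 and 340.0 CPM in NKX1-2 blastocyst sums, 260.5 and 332.5 CPM in control blastocyst sums and 1010.7 to 1100.5 CPM in the morula sums. Most of the morula sums was Klf2, at 678.7 to 733.9 CPM, against 99.2 to 120.4 CPM in the blastocyst sums. Tdgf1, Fgf4 and Esrrb were also lower in the blastocyst, while Sox2 and Prdm14 overlapped. Nanog went the other way, at 72.8 to 138.6 CPM in the blastocyst sums and 45.9 to 60.4 CPM in the morula sums. The list therefore did not move as a set. The part of both marker lists in the differences of the actin genes was not tested, and fewer cells of a type and less RNA per cell cannot be told apart in sums.

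**Figure D5:**
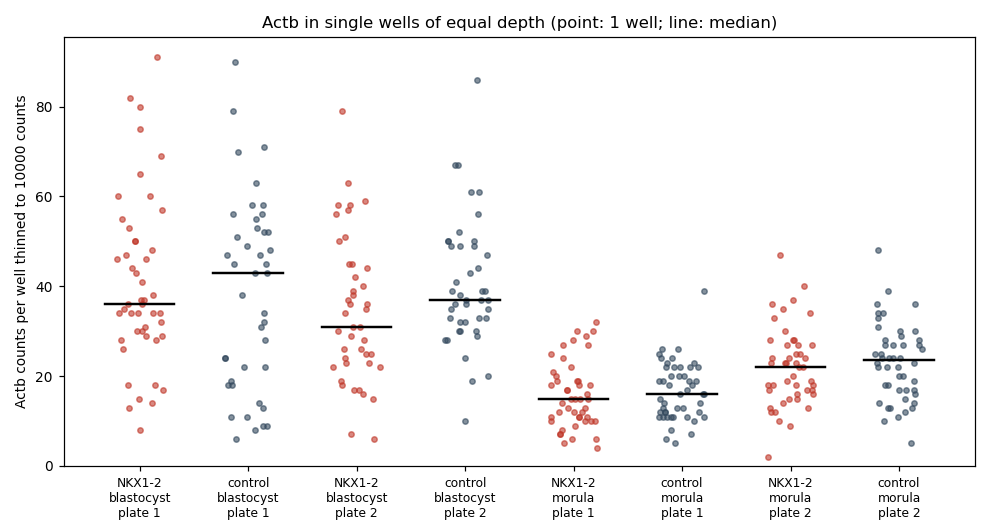
Actb counts per well after thinning to 10000 counts (y axis) for NKX1-2 (red) and control (dark) wells of each plate (x axis); each point is 1 well and the line is the median. Blastocyst wells spread from 6 to 91 counts with medians of 31 to 43, and morula wells from 2 to 48 with medians of 15 to 23.5.

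The promoters of 9 of the 10 genes were searched for the CArG box, the motif bound by serum response factor, on both strands of RefSeq windows of GRCm38.p6 from 250 bases before to 50 bases after a start; Actb had no window here. It was found in 2 of their 12 windows, those of Actg1 and Myl6, and in 535 of all 32851 windows (1.63%). The stretches around the box are shown with the box in capitals, at chr11:120348531-120348630 for Actg1 and chr10:128493010-128493104 for Myl6, both on the minus strand. The box begins 90 bases before the RefSeq start used for Actg1 and 50 before the one used for Myl6. The Myl6 stretch lies inside the gene span given above, so that start is not the outermost one annotated.
Actg1 promoter: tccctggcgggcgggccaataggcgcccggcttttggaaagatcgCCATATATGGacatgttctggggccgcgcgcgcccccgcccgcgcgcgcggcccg
Myl6 promoter: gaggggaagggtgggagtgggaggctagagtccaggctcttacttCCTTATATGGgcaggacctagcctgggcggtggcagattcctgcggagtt
A match is a description of the letters only.

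The genes whose levels over the 8 sums were most like those of Tmsb4x, by Pearson's r of log2 CPM among 6977 genes that reached 20 CPM, were Oaz1 (0.956), Dnajb11 (0.945), Kat6b (0.936), Nhp2 (0.932) and Klhdc2 (0.929). Oaz1, ornithine decarboxylase antizyme 1, had 687.1 and 825.5 CPM in NKX1-2 blastocyst sums, against 469.2 and 509.0 CPM in control blastocyst sums. The morula sums had 610.4 and 639.9 CPM with NKX1-2, against 387.6 and 454.3 CPM with control. The 8 sums fall into pairs that share a plate, and the values are a description.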

How the data were processed

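The deposited values are whole-number counts per gene and well, without normalisation. Per the labels each plate holds both morpholinos, and a deposited table gives the morpholino of each barcode. The submitters' processing notes name TopHat2, GRCm38 and mm10 without version or role, and the counting tool and its use of strand are not stated in the sources used. The 10 genes and the lists were chosen with earlier results of these data known.

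Kept wells had 2000 genes or more. Their sums were filtered with filterByExpr and scaled by TMM (edgeR 4.0.16, R 4.3.3). Morpholino terms come from a robust quasi-likelihood fit to the 8 sums, blocked by plate, and stage terms from separate fits to the 4 control and the 4 NKX1-2 sums. An adjusted p-value under 0.05 counted as a call. The labels put both morpholinos on every plate, hence the block. Deviations of sums of 1 plate correlated at 0.257 in the morula and -0.0007 in the blastocyst. Besides the 10 genes, up to 8 per comparison were named that passed and moved alike in every plate, smallest p first. Intervals are exact and cover 95%, for counting error only. Per-plate differences use a prior count of 2. Shared sequence is the percent of 31-base stretches of GENCODE M21 transcripts that another gene also holds, and 54510 of 55453 genes were matched by symbol. Promoters are from RefSeq. The fits were tested on simulated data.

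Alternatives were RLE size factors, DESeq2 1.42.0, limma voom (limma 3.58.1), other well filters, thinned wells, no low-count filter, other blocks, pseudogene rows added, the highest well left out, and each plate left out. The restriction to genes with little shared sequence was chosen after seeing the data. Python 3.11.15 with numpy 2.4.6 and scipy 1.17.1 gave the values per well, and matplotlib 3.10.9 the figures.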

Additional observations from a re-analysis of the deposited data

Results flagged for a closer look

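Msn had differences of opposite sign at the 2 stages on every plate: its NKX1-2 minus control difference in log2 CPM was -0.83 and -0.39 on the blastocyst plates and 0.44 and 0.55 on the morula plates, so the mean difference of the blastocyst plates minus that of the morula plates was -1.10. The exact intervals of the count ratio hold 1 at both stages, so no difference was detectable at this depth. The difference between the stages was not tested, since the gene was too low for the fits, and it rests on 8 and 11 counts in NKX1-2 and control blastocyst wells and 7 and 3 counts in NKX1-2 and control morula wells.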

How the results depend on the processing

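Of 677 log2 fold changes of the 10 genes under alternatives, 631 moved by less than the spread between plates and 46 by more, and no called gene of the 10 changed sign. The spread was a standard deviation over 2 plates, and leaving out 1 of 2 plates shifts their mean by less than that. Settings with a plate left out could therefore hardly count as moved, and the 631 says little about dependence on single plates. Of 220 values of the other named genes, 219 kept their direction and call, and Tagln2 lost its call in wells with only Xist (adjusted p = 0.784). The numbers of other actin genes called were as follows. In the morula, main count 0, they were 1 with no filter on low counts, 6 with the 4 sums of that stage alone, and 0 to 7 with 1 plate left out. In the blastocyst, main count 1, they were 4 with no filter, 0 in wells with only Xist, 2 with deep wells thinned, 3 with the 4 sums of that stage alone, and 2 to 9 with 1 plate left out. For the difference between stages, main count 0, they were 0 to 4 with 1 plate left out. For the stages in control wells, main count 61, they were 39 with DESeq2, 24 in wells with only Xist, and 37 to 60 with 1 plate left out. For the stages in NKX1-2 wells, main count 62, they were 33 to 47 with 1 plate left out. The causes were not tested.

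Without the plate block 34 genes passed in the morula against 60 with it, and 43 against 79 in the blastocyst; the count of other actin genes called without the block was 0 in the morula, 1 in the blastocyst and 0 for the difference. Among the named genes, Tmsb4x lost its morula call without the block, with a log2 fold change of 2.51. With the replicate number as a block for the stages, 62 other actin genes passed in NKX1-2 wells and 58 in control wells. Same-numbered plates of the stages had deviations that correlated at -0.002 and 0.025. Blastocyst sums that do share a plate correlated at -0.0007, so such values cannot show whether the numbers pair plates.

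Of all genes, DESeq2 called 15 in the morula and 20 in the blastocyst, against 60 and 79. With no filter these were 179 and 254, and in wells with only Xist 8 and 14. With 1 plate left out they were 13 to 838 and 99 to 635. For the difference between stages 0 to 252 passed over all alternatives, against 2. With only 2 plates per stage and under 10 counts of Tmsb4x, Actg1 or Msn in some groups, depth limits these genes, and shares of wells moved out of their exact interval in 43 of 80 cases when wells were thinned.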
